A study of Homo sapiens with 18 samples.

Results

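The AP-1 family was followed here through 8 genes, FOS, FOSB, FOSL1, FOSL2, JUN, JUNB, JUND and ATF3, in SKOV-3, an established human cell line that came from an ovarian carcinoma. Every probe set that lists 1 of these genes as its sole gene was taken, which gave 20 of the 54613 probe sets of the array and 8 of the 19775 genes with a probe set of their own. FOS, FOSB, FOSL1 and JUNB have 1 probe set each, FOSL2 has 5, JUN and JUND have 4 each, and ATF3 has 3. The arrays were Affymetrix U133 Plus2, 18 in number, and 3 independent cultures made up each of the 6 groups. LHR- are SKOV-3 cells without the luteinizing hormone receptor (LHR), described in the methods of the study as the parent line and elsewhere as mock-transfected cells. LHR+ are SKOV-3 cells stably transfected with LHR and given no luteinizing hormone (LH). LH1, LH4, LH8 and LH20 are LHR+ cells that had been given LH at 50 ng/ml, and the number is the hours, 1, 4, 8 or 20. All LH groups carry the receptor, and no LHR+ group was kept without LH for a matched time, so hours in culture and hours with LH cannot be told apart. The selection that follows transfection and the receptor cannot be told apart in LHR+/LHR- either.

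AP-1 is not 1 protein but a set of dimers. Its members carry a basic leucine zipper, in which a basic stretch holds DNA and a zipper of leucines joins the partners. FOS proteins pair with JUN proteins and not with themselves, JUN proteins can pair with each other as well, and ATF3 pairs with JUN proteins or with itself, so the composition of AP-1 in a cell follows from which subunits are made and when. Several of these genes are immediate-early genes, which are transcribed within minutes of a stimulus without new protein synthesis. The LH receptor couples to the G protein that stimulates adenylyl cyclase, and cyclic AMP acts on transcription through CREB, which binds the cyclic AMP response element.

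The values are the intensities of the deposited table, on a linear scale, and tests were made on log2(intensity + 1). A probe set was called with a p under 0.05 and an adjusted p under 0.1 from limma, a fold change of 2 or more, and no overlap between the 3 arrays of either group. A called probe set is written below as up-regulated or down-regulated. With 3 arrays on each side the smallest two-sided p of an exact permutation test is 0.1, so p-values depend on how limma models the variance, and 3 arrays per group limit the precision of every value. Intensities of different probe sets are not on 1 scale and were not set against each other. The groups showed the epithelial markers KRT7, KRT8, KRT18 and KRT19, with group medians at or above the 92.8th percentile of the array, and ERBB2, PAX8 and MUC1 lay at or above the 83.2nd. EPCAM and WT1 lay between the 48.6th and the 67.3rd percentile, and CDH1 did not exceed the 49.0th. Leukocyte and endothelial markers lay at or below the 34.5th percentile, steroidogenic markers at or below the 41.4th and the erythroid marker HBB at or below the 45.4th. Of the fibroblast and mural markers, ACTA2 lay at or below the 54.1st and PDGFRB between the 57.7th and the 67.7th. The part of EPCAM, WT1 and PDGFRB, which differed between LHR- and LHR+ arrays, in these results was not tested. The probe set of LHCGR, the receptor gene, read 0.196 to 4.11 in all 18 arrays, LHR+ arrays included, at or below the 13.9th percentile. Whether its probes lie within the transfected sequence is not given in the sources used here, so it checks no label. The log2 ratio of the 3′ to the 5′ GAPDH control probe set, a measure of RNA quality, was 0.70 to 1.22 in LHR- arrays and 0.49 to 0.77 in all others. The ratio for ACTB was larger in every group, 3.30 to 4.06 in LHR- arrays and 2.84 to 3.69 in all others, which overlap. The part of these ratios in LHR+/LHR- and in the differences between probe sets of 1 gene was not tested.

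In LHR+ cells without LH, none of the 20 AP-1 probe sets was up- or down-regulated in comparison with LHR- cells, although 9 had an unadjusted p under 0.05 in limma (2 higher and 7 lower in LHR+ cells). Over all probe sets 1.85% were up-regulated and 1.52% down-regulated, and a fit without moderated variances also called 0 AP-1 probe sets. FOSL1 was higher by the test alone, short of the fold of 2, with a log2 fold change of 0.68 ± 0.10 (SE, adjusted p = 0.000852 from limma). JUNB was lower in the same way, with a log2 fold change of -0.69 ± 0.19 (SE, adjusted p = 0.0429 from limma). So were ATF3 202672_s_at, at -0.39 ± 0.10 (SE, adjusted p = 0.0306 from limma), and FOSL2 218880_at, at -0.44 ± 0.14 (SE, adjusted p = 0.0786 from limma). FOSB, whose arrays overlapped, was higher, at 1.41 ± 0.47 (SE, adjusted p = 0.099 from limma). The count of 0 rested on single arrays, since FOSB was called up without LHR- replicate 1 or without LHR+ replicate 3, and FOS was called down without LHR+ replicate 2, each time giving 1 called probe set.

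After 1 h of LH, 5 of the 20 probe sets, from the 4 genes FOS, FOSB, FOSL2 and ATF3, were up-regulated in comparison with LHR+ cells, and 0 were down-regulated in limma, where 0 were also lower with an unadjusted p under 0.05. Of all probe sets 0.443% were up-regulated and 0.0385% down-regulated. The median log2 fold change was 0.52 over the 20 probe sets and 0.02 over all. After 4 h, 2 probe sets were up-regulated (FOSB and ATF3) and 1 was down-regulated (FOSL1), beside 1.27% and 0.623% of all probe sets. After 8 h FOSB was up-regulated and FOSL1 down-regulated, beside 0.89% and 0.632% of all. After 20 h, 3 probe sets were up-regulated, FOSB and a pair of FOSL2, and 4 were down-regulated, FOSL1 and 3 of JUN, where 3.64% and 3.42% of all probe sets were. These 4 comparisons share the 3 LHR+ arrays.

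**Figure D1:**
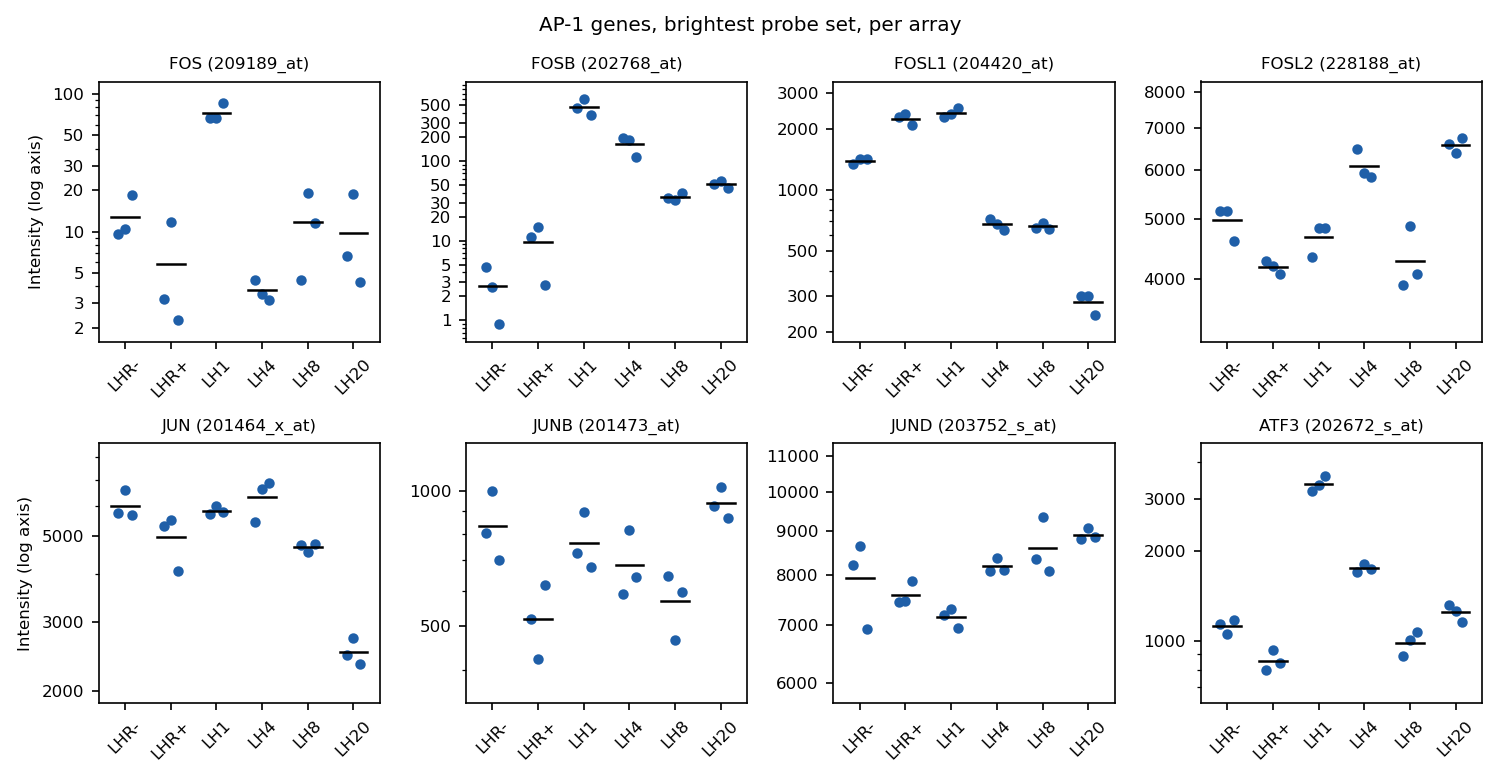
Intensity on a log axis (y) in each of the 18 arrays by group (x) for the brightest probe set of each of the 8 genes, with a dot per array and a line at the mean of 3. The LH1 arrays stand above all others for FOS (66.6 to 85.9), FOSB (375 to 598) and ATF3 (3193 to 3573), and the LH20 arrays stand below all others for FOSL1 (241 to 300) and JUN (2348 to 2725).

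FOS, an immediate-early gene, was up-regulated at 1 h and not called against LHR+ cells at any later time. Its probe set 209189_at read 3.24, 11.8 and 2.27 in LHR+ arrays and 66.6, 67.5 and 85.9 in LH1 arrays. In LH4 arrays it read 4.47, 3.54 and 3.16, in LH8 arrays 4.41, 19.0 and 11.5, in LH20 arrays 6.60, 18.6 and 4.27, and in LHR- arrays 9.53, 10.4 and 18.3. The 3 LH1 arrays were thus above the other 15, and the LH4 arrays were also below all LHR- arrays. The other groups lay low on the array, with group medians between the 13.6th and the 28.8th percentile. The ratio of mean intensities LH1/LHR+ was 12.7, with a log2 fold change of 3.72 ± 0.57 (SE, adjusted p = 0.0066 from limma). From 1 to 4 h FOS was down-regulated, with a log2 fold change of -3.98 ± 0.57 (SE, adjusted p = 0.00136 from limma). Near background the size of these changes depends on the constant added, and with 16 in place of 1 they were 2.06 and -2.17, still called. The LH1/LHR+ call was lost when the other 4 groups were left out of the fit.

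FOSB, the FOS relative whose product can outlast FOS itself in many cells, was up-regulated at all 4 LH times. Its probe set 202768_at read 4.62, 2.65 and 0.896 in LHR- arrays and 11.2, 14.9 and 2.74 in LHR+ arrays, which overlap. It read 465, 598 and 375 in LH1 arrays, 197, 182 and 112 in LH4 arrays, 34.7, 32 and 39.4 in LH8 arrays and 50.8, 56.2 and 46.5 in LH20 arrays. Every LH array was above every array without LH, and the order of the LH groups was LH1, LH4, LH20 and LH8 with no overlap between neighbours. The mean intensity was 480 ± 112 (SD, n = 3) at 1 h and 9.61 ± 6.22 (SD, n = 3) in LHR+ cells, a ratio of 49.9. The log2 fold change against LHR+ cells was 5.71 ± 0.47 at 1 h (SE, adjusted p = 2.6e-05 from limma) and 4.16 ± 0.47 at 4 h (SE, adjusted p = 0.000124 from limma). At 8 h it was 2.01 ± 0.47 (SE, adjusted p = 0.0312 from limma), which became 1.03 when 16 was added and was lost when only these groups entered the fit. At 20 h it was 2.53 ± 0.47 (SE, adjusted p = 0.00173 from limma), or 1.42 with 16 added. Between neighbouring LH times, the step from 1 to 4 h had a log2 fold change of -1.56 ± 0.47 and was not called (adjusted p = 0.114 from limma). From 4 to 8 h FOSB was down-regulated, with a log2 fold change of -2.14 ± 0.47 (SE, adjusted p = 0.0292 from limma), a call lost without LH4 replicate 1 (-1.99) or replicate 2 (-2.05). From 8 to 20 h the log2 fold change was 0.52 ± 0.47, not called.

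The promoters of FOS, FOSB, FOSL2, JUN and JUND are shown. The first 3 of these genes were up-regulated at 1 h, FOSL2 by 218880_at alone, and JUN and JUND were not. ATF3, also up-regulated at 1 h, and JUNB, not called then, are not printed, so the printed set does not compare called with uncalled genes. Each is the stretch of 250 bases before the start of the gene in RefSeq, build GRCh38.p14, 5′ to 3′ in the direction of the gene, with capitals for TATAAA (the TATA box) and TGACG (the core of the cyclic AMP response element), the latter also as CGTCA where it lies on the other strand.
FOS promoter (chr14:75278578-75278827, plus strand): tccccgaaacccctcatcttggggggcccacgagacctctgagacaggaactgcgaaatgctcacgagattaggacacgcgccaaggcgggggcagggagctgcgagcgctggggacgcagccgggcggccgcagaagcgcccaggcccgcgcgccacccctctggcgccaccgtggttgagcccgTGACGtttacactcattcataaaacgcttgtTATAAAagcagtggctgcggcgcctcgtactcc
FOSB promoter (chr19:45467746-45467995, plus strand): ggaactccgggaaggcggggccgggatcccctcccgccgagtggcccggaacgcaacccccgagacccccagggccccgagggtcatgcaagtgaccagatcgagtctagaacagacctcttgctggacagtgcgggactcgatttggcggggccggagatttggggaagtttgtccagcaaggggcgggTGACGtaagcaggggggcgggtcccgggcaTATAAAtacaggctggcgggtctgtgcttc
FOSL2 promoter (chr2:28392608-28392857, plus strand): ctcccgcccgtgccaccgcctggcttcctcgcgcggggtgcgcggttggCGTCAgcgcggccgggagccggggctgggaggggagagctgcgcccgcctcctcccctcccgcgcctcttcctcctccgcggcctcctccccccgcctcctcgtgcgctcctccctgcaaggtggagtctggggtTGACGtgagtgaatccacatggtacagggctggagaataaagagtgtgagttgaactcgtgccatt
JUN promoter (chr1:58784048-58784297, minus strand): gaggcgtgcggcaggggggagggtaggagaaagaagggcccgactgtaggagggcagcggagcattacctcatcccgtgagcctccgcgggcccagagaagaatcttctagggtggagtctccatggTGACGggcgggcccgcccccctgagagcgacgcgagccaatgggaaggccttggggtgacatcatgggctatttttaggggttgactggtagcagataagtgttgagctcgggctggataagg
JUND promoter (chr19:18281623-18281872, minus strand): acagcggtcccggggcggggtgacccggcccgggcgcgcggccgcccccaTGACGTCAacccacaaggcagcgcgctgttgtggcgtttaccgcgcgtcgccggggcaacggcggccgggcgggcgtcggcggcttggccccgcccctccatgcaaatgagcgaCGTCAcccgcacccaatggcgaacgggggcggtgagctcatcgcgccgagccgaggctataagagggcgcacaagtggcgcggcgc
In FOS, TGACG began 64 bases before the start and TATAAA 33 bases before it. In FOSB the same letters began 60 and 30 bases before the start, and in FOSL2 TGACG began 66 bases before the start, with a copy on the other strand 201 bases before it. JUN held TGACG 123 bases before its start. JUND held the full element TGACGTCA, beginning 200 bases before the start, and a further core on the other strand at 86 bases. JUNB, not printed, held TGACG at 137 and TATAAA at 31 bases. The 8 promoters matched were for 7 of the 8 genes, all but FOSL1, with a pair of starts for ATF3. Of these, 6 held TGACG on either strand, and so did 21.2% of all 35116 promoters of the table. Neither window taken for ATF3 held TGACG. Whether either lies before the start that these cells use for ATF3 was not tested, so this absence decides nothing about the gene. For TATAAA the numbers were 4 of 8 and 10.7%, for TGACGTCA, which contains TGACG, 1 of 8 and 1.65%, and for GGGCGG (the GC box) 6 of 8 and 42.6%. The AP-1 site, TGACTCA or on the other strand TGAGTCA, was in 0 of the 8 and in 4.2% of all, and the CArG box of the serum response element was in 0 of 8 and in 1.16%. These are matches of letters in this window. Sites further upstream, or ones that differ by a letter, were not searched for, so a count of 0 does not show that a gene lacks such a site.

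FOSL1, which encodes FRA-1, a FOS protein without the transactivation domain of FOS, moved in the other direction and later. Its probe set 204420_at read 1342, 1419 and 1429 in LHR- arrays, 2282, 2365 and 2086 in LHR+ arrays and 2294, 2379 and 2540 in LH1 arrays. It read 715, 682 and 637 in LH4 arrays, 651, 689 and 642 in LH8 arrays and 298, 300 and 241 in LH20 arrays. The order of the groups from low to high was LH20, LH8, LH4, LHR-, LHR+ and LH1, where LH8 overlapped LH4 and LHR+ overlapped LH1 and all other neighbours were apart. FOSL1 was not called at 1 h, with a log2 fold change of 0.10 ± 0.10 against LHR+ cells (SE, adjusted p = 0.964 from limma). It was down-regulated by 4 h, with a log2 fold change of -1.73 ± 0.10 (SE, adjusted p = 2.72e-07 from limma), and at 8 h it was -1.76 ± 0.10. At 20 h the mean intensity was 280 ± 33.8 (SD, n = 3) in contrast to 2244 ± 144 (SD, n = 3) in LHR+ cells. The log2 fold change there was -3.01 ± 0.10 (SE, adjusted p = 1.87e-09 from limma). Between LH times FOSL1 was down-regulated from 1 to 4 h (-1.83 ± 0.10) and from 8 to 20 h (-1.24 ± 0.10, SE, adjusted p = 6.42e-06 from limma), and the step from 4 to 8 h was -0.04 ± 0.10 and not called. All calls of FOSL1 kept their direction and side of the threshold in every alternative run.

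FOSL2, which encodes FRA-2, the other FOS protein of that kind, was read by 5 probe sets that differed in size of change. Probe set 218880_at read 697, 575 and 571 in LHR+ arrays, 1305, 1734 and 1335 in LH1 arrays, 1186, 1232 and 969 in LH4 arrays, 874, 976 and 772 in LH8 arrays and 1730, 1978 and 1819 in LH20 arrays. All LH arrays were above the LHR+ arrays, the LH20 arrays overlapped the LH1 arrays at 1 value, and the LH8 arrays were the lowest of the LH groups, overlapping LH4. It was up-regulated at 1 h, with a log2 fold change of 1.24 ± 0.14 (SE, adjusted p = 0.000456 from limma), and at 20 h, with 1.59 ± 0.14 (SE, adjusted p = 4.02e-06 from limma). At 4 and 8 h the log2 fold change was 0.87 ± 0.14 and 0.51 ± 0.14, under the threshold of fold. The 1 h call was lost when the other groups were left out of the fit. From 8 to 20 h it was up-regulated again, with a log2 fold change of 1.08 ± 0.14 (SE, adjusted p = 0.000247 from limma), though without LH8 replicate 3 the value was 0.99 and missed the fold.

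The other 4 probe sets of FOSL2 had smaller or less certain changes. The brightest, 228188_at, read 4279, 4197 and 4084 in LHR+ arrays, 4345, 4833 and 4841 in LH1 arrays, 6475, 5930 and 5846 in LH4 arrays, 3913, 4863 and 4075 in LH8 arrays and 6589, 6371 and 6738 in LH20 arrays. It was high in the LH4 and LH20 arrays, which did not overlap any array of LHR+, LH1 or LH8. Its log2 fold change was 0.16 ± 0.10 at 1 h, 0.54 ± 0.10 at 4 h and 0.65 ± 0.10 at 20 h (SE, adjusted p = 0.000356 from limma), so none reached the fold of 2. Probe set 225262_at had 0.66 ± 0.13 at 1 h and 0.99 ± 0.13 at 20 h (SE, adjusted p = 0.000112 from limma), the latter just under the threshold. With quantile normalization, without LHR+ replicate 1 or 2 or without LH20 replicate 3, 225262_at was called at 20 h. Probe set 205409_at was up-regulated at 20 h, with a log2 fold change of 1.27 ± 0.38 (SE, adjusted p = 0.0324 from limma), and this call was lost without LHR+ replicate 2 (0.89), without LH20 replicate 1 or with only these groups in the fit. Probe set 218881_s_at had 0.74 ± 0.24 at 20 h (SE, adjusted p = 0.0484 from limma). All 5 had a positive log2 fold change at each LH time, and the pairwise Pearson correlations of their log2 values over the 18 arrays were 0.52 to 0.87, from the same arrays and given as a description.

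JUN, the c-Jun gene, is the main partner of the FOS proteins. It was not called at 1, 4 or 8 h and was down-regulated at 20 h by 3 of its 4 probe sets. Probe set 201466_s_at read 2898, 2786 and 3275 in LHR+ arrays, 3492, 3181 and 3257 in LH1 arrays, 4355, 4225 and 4361 in LH4 arrays, 2929, 2695 and 2738 in LH8 arrays and 1232, 1143 and 1211 in LH20 arrays. The LH4 arrays were the highest and the LH20 arrays the lowest of the series, both without overlap, while LHR+ overlapped LH1 and LH8. At 20 h the log2 fold change against LHR+ cells was -1.32 ± 0.09 for 201466_s_at (SE, adjusted p = 2.92e-07 from limma), -1.24 ± 0.13 for 201465_s_at and -1.16 ± 0.11 for 213281_at. For 201464_x_at, the brightest, it was -0.97 ± 0.13 (SE, adjusted p = 0.000105 from limma), short of the fold of 2. With quantile normalization, without LHR+ replicate 3 or without LH20 replicate 2, 201464_x_at was called. This probe set read 5319, 5518 and 4078 in LHR+ arrays and 2466, 2725 and 2348 in LH20 arrays, which do not overlap. Its suffix marks probes that may also bind other transcripts.

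At 4 h the mean of each of the 4 JUN probe sets was the highest of the LH times, and against LHR+ cells the log2 fold changes were 0.20 to 0.53. The highest of these, for 201466_s_at, had an SE of 0.09 (adjusted p = 0.00251 from limma) and did not reach the fold of 2. From 8 to 20 h JUN was down-regulated by the same 3 probe sets, with log2 fold changes of -1.22 ± 0.09, -1.02 ± 0.13 and -1.06 ± 0.11 for 201466_s_at, 201465_s_at and 213281_at. The call of 201465_s_at there was lost without LH8 replicate 1 (-0.97) or LH20 replicate 2 (-0.96), and that of 213281_at without LH20 replicate 2 (-0.98). Over the 18 arrays the 4 probe sets correlated with r of 0.86 to 0.97, again as a description.

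JUNB, whose protein can take the place of JUN and often opposes it, had its highest mean at 20 h. Probe set 201473_at read 806, 998 and 701 in LHR- arrays, 518, 422 and 616 in LHR+ arrays, 726, 895 and 678 in LH1 arrays, 589, 819 and 644 in LH4 arrays, 646, 465 and 596 in LH8 arrays and 925, 1020 and 870 in LH20 arrays. The LH20 arrays were above all of LHR+, LH4 and LH8 but overlapped LH1 and LHR-, and the LH8 arrays overlapped LHR+. The log2 fold change at 20 h was 0.87 ± 0.19 (SE, adjusted p = 0.00515 from limma), which passed the test but not the threshold of fold. At 1 h it was 0.57 ± 0.19 (SE, adjusted p = 0.41 from limma).

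JUND, the member known for steady expression in resting cells, was not called by any of its 4 probe sets in any of the 9 comparisons. Its brightest probe set, 203752_s_at, read 7441, 7462 and 7870 in LHR+ arrays, 7197, 7303 and 6946 in LH1 arrays, 8089, 8377 and 8106 in LH4 arrays, 8355, 9345 and 8098 in LH8 arrays and 8803, 9062 and 8864 in LH20 arrays. The LH1 arrays were below and the LH4, LH8 and LH20 arrays above all LHR+ arrays, by small amounts. The log2 fold change was between -0.09 ± 0.09 at 1 h and 0.23 ± 0.09 at 20 h, both SE, and the latter had an adjusted p of 0.113 from limma. Compared directly, LH20/LH1 was 0.32 ± 0.09 (SE, adjusted p = 0.0288 from limma), under the threshold of fold. The other 3 probe sets had group means of 55.7 to 177 and correlated with the brightest and with each other with r of -0.14 to 0.47 over the 18 arrays. With so little change between groups, these r cannot show whether the probe sets agree. All 4 had a positive log2 fold change at 4, 8 and 20 h. When LH20 replicate 3 was left out, 229117_s_at was called at 20 h against LHR+ cells. The suffix of 203751_x_at and 214326_x_at marks probes that may also bind other transcripts.

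ATF3, a stress- and cyclic AMP-responsive member that can act as a repressor, was up-regulated at 1 and 4 h. Its brightest probe set, 202672_s_at, read 1136, 1051 and 1171 in LHR- arrays and 798, 931 and 844 in LHR+ arrays. It read 3193, 3347 and 3573 in LH1 arrays, 1698, 1813 and 1748 in LH4 arrays, 886, 1006 and 1067 in LH8 arrays and 1319, 1259 and 1160 in LH20 arrays. The LH1 arrays were the highest of the series and the LH4 arrays the next, each apart from all others, and LH8 overlapped LHR+ and LHR-, which in turn overlapped LH20. The mean was 3371 ± 191 (SD, n = 3) at 1 h and 858 ± 67.8 (SD, n = 3) in LHR+ cells. The log2 fold change was 1.97 ± 0.10 at 1 h (SE, adjusted p = 1.31e-07 from limma) and 1.03 ± 0.10 at 4 h (SE, adjusted p = 2.66e-05 from limma). The 4 h value lay at the threshold of fold, and it was 0.97 with equal array medians and 0.98 without LHR+ replicate 1, both not called. At 8 h it was 0.20 ± 0.10 (SE, adjusted p = 0.357 from limma), and at 20 h 0.54 ± 0.10 (SE, adjusted p = 0.00155 from limma), under the threshold of fold.

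A further ATF3 probe set, 1554980_a_at, read 118, 83.5 and 69.9 in LHR+ arrays and 232, 260 and 204 in LH1 arrays, which do not overlap. It was up-regulated at 1 h, with a log2 fold change of 1.38 ± 0.28 (SE, adjusted p = 0.0478 from limma). This call was lost when 1 of LHR+ replicates 2 and 3 or any 1 of the LH1 replicates was left out, with values of 1.21 to 1.47, and when the other groups were left out of the fit. The third, 1554420_at, stayed under an intensity of 40 in every array, and its log2 fold change at 1 h was 1.93 ± 0.81 (SE, adjusted p = 0.63 from limma). The 2 brighter ATF3 probe sets correlated with r of 0.82 over the 18 arrays, and the dim one with r of 0.35 and 0.48.

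**Figure D2:**
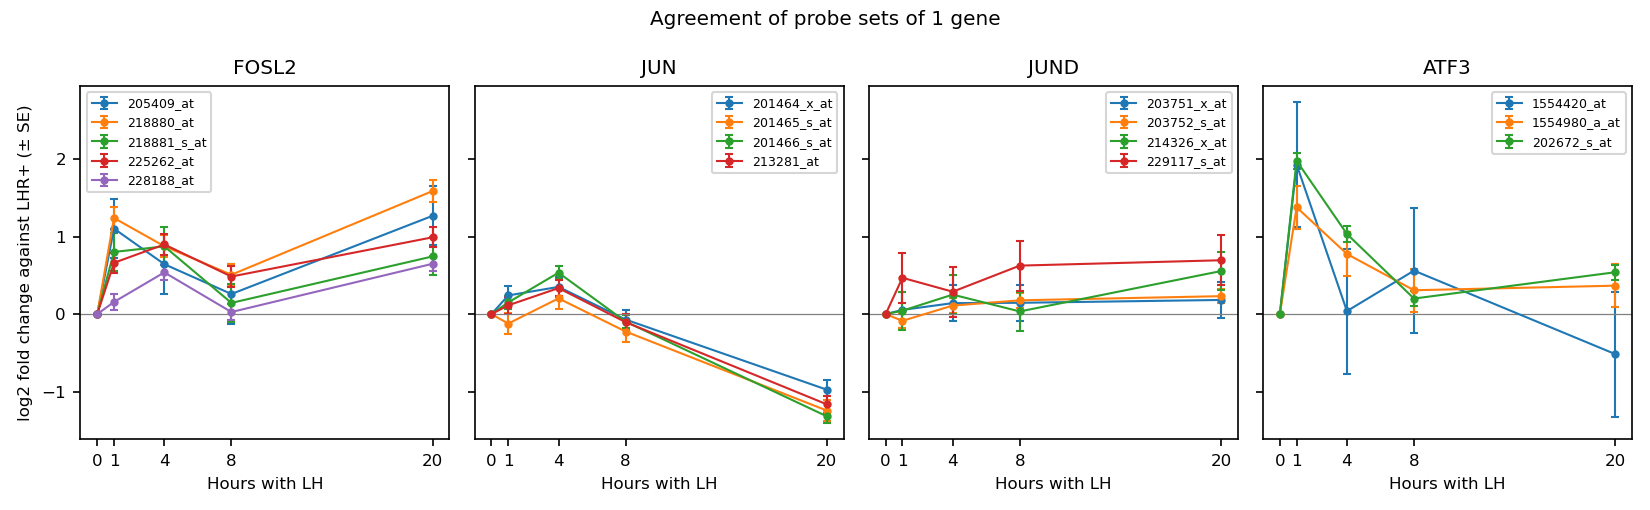
Log2 fold change against LHR+ cells ± SE (y) over hours with LH (x), a line per probe set, for the genes with more than 1 probe set. The 5 FOSL2 probe sets lie above 0 at every LH time, the 4 JUN probe sets lie between -1.32 and -0.97 at 20 h, the JUND probe sets stay under 0.70, and the ATF3 probe sets are at 1.38 to 1.97 at 1 h.

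The order of the subunits over time was read from when each probe set rose and fell, not from their levels. Among the LH times, the highest mean was at 1 h for FOS, FOSB, FOSL1 and the 3 ATF3 probe sets, at 4 h for the 4 JUN probe sets, and at 20 h for JUNB, the 4 JUND probe sets and 4 of 5 of FOSL2. Many of these highest means were not called against LHR+ cells. At 1 h this held for FOSL1 and ATF3 1554420_at, and at 4 h for the 4 JUN probe sets. At 20 h it held for JUNB, the 4 JUND probe sets and FOSL2 225262_at and 228188_at. From 1 to 4 h, FOS and FOSL1 were down-regulated and 0 AP-1 probe sets were up-regulated in limma (3 were higher with an unadjusted p under 0.05), beside 0.734% up and 0.787% down over all probe sets. From 4 to 8 h, FOSB was down-regulated and 0 were up-regulated in limma, with 0 higher at an unadjusted p under 0.05, beside 0.436% and 0.734% of all. Of the 20 probe sets 10 were lower with an unadjusted p under 0.05 in that step, among them ATF3 202672_s_at with a log2 fold change of -0.83 ± 0.10 (SE, adjusted p = 0.000676 from limma). From 8 to 20 h, 1 probe set of FOSL2 was up-regulated and 4 were down-regulated, FOSL1 and 3 of JUN, beside 2.26% and 2.02% of all. FOS, FOSB and ATF3 were not called in that last step.

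Compared directly, LH20/LH1 gave 10 down-regulated probe sets of the 20, from the 5 genes FOS, FOSB, FOSL1, JUN and ATF3. None was up-regulated in limma or without moderated variances, and in limma 4 were higher with an unadjusted p under 0.05. Over all probe sets 3.44% were up-regulated and 4.28% down-regulated. The median log2 fold change was -0.53 over the 20 and -0.05 over all. The values were -3.00 ± 0.57 for FOS, -3.18 ± 0.47 for FOSB and -3.11 ± 0.10 for FOSL1, with SE, and that of FOS was -1.82 with 16 added, still called. The 4 JUN probe sets lay between -1.47 and -1.12, and ATF3 202672_s_at was at -1.44 ± 0.10 (SE, adjusted p = 4.94e-07 from limma). The FOSL2 probe sets lay between -0.06 and 0.49, and JUNB was at 0.30 ± 0.19 (SE, adjusted p = 0.336 from limma), so these genes were not called between 1 and 20 h. The 2 dimmer ATF3 probe sets were at -2.44 ± 0.81 and -1.01 ± 0.28. The former was -1.08 with 16 added, still called, and the latter missed the fold with 16 added (-0.92), with equal array medians (-0.94) and with quantile normalization (-0.99). The first was no longer called without LH1 replicate 1 (-2.09) or 3 (-2.23) or without LH20 replicate 2 (-2.43) or 3 (-2.45), and the second missed the call without LH1 replicate 2 (-0.92) or LH20 replicate 2 (-0.92) or 3 (-0.97).

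**Figure D3:**
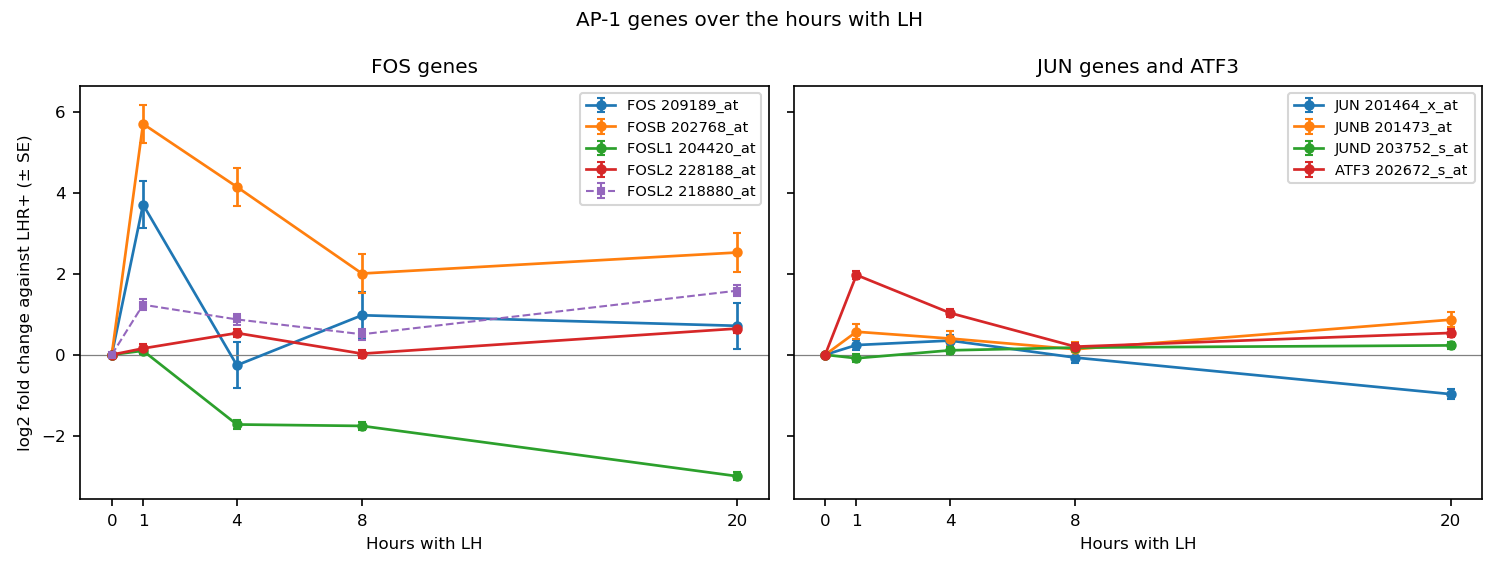
Log2 fold change against LHR+ cells ± SE (y) over hours with LH (x) for the brightest probe set of each gene, with 0 h set to 0 and the FOSL2 probe set of largest change at 1 h (218880_at) added as a dashed line, FOS genes on the left and JUN genes and ATF3 on the right. FOS, FOSB and ATF3 are highest at 1 h (3.72, 5.71 and 1.97), FOSL1 goes down to -3.01 and JUN to -0.97 at 20 h.

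Partners of the family were read from a list of basic leucine zipper genes outside the 8, of which 18 have a probe set. MAFF, a small MAF protein, was the 1 gene up-regulated at 1 h, with a log2 fold change of 1.21 ± 0.13 (SE, adjusted p = 0.000378 from limma), and at 4 h, with 1.39 ± 0.13. CREB5, a CREB relative, was the 1 gene down-regulated at 20 h, at -1.06 ± 0.13 (SE, adjusted p = 4.77e-05 from limma), a call lost without LHR+ replicate 1 or without LH20 replicate 3 (-0.94). The MAFF call at 1 h was lost with only these groups in the fit. The list had 0 called genes in LHR+/LHR- and at 8 h in limma, where 4 and 5 had an unadjusted p under 0.05. At 1, 4 and 20 h the 1 called gene was 5.56% of the list, beside 0.319%, 1.98% and 7.4% of all genes called in either direction, and for 8 h and LHR+/LHR- the share of all genes was 1.44% and 4.2%. Its median log2 fold change was -0.06 at 1 h and -0.13 at 20 h, beside -0.01 and 0.00 over all genes.

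Of 29 measured kinases and factors that act on AP-1 genes, 2 were called in any comparison with LHR+ or LHR- cells. MAP2K6, a kinase upstream of p38, read 24.1 in LHR- cells, 6.73 in LHR+ cells, 36.3 at 4 h and 90.3 at 20 h, each a mean of 3 arrays. It was down-regulated in LHR+ cells (-1.89 ± 0.49, SE, adjusted p = 0.0328 from limma) and up-regulated at 4 h (2.28 ± 0.49) and at 20 h (3.76 ± 0.49, SE, adjusted p = 0.000115 from limma). At these low intensities the values depend on the constant added, and with 16 they were 1.14 at 4 h and 2.25 at 20 h, still called. The 4 h call was lost with only these groups in the fit. The LHR+/LHR- call was lost with 16 (-0.84), without LHR+ replicate 1 (-1.80) or replicate 3 (-1.49), and with only these groups in the fit. RPS6KA5, a kinase that acts on CREB and ATF1, was up-regulated at 20 h, with a log2 fold change of 1.00 ± 0.18 that fell below the fold without LHR+ replicate 3 (0.99) or LH20 replicate 2 (0.89), with 16 added (0.93) and with equal medians (0.98). At 1 and 8 h the list had 0 called genes in limma, where 2 and 6 had an unadjusted p under 0.05. With a filter on group means under 32, 1 gene of the list was up-regulated at 1 h. Of the list 3.45% was called in LHR+/LHR- and at 4 h and 6.9% at 20 h, beside 4.2%, 1.98% and 7.4% of all genes, so the shares in LHR+/LHR- and at 20 h were under those of all genes. Its median log2 fold change was 0.04 at 1 h and at 4 h.

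Genes known as AP-1 targets were represented by 31 genes. At 1 h, 4 were up-regulated and 0 down-regulated, where 4 were lower with an unadjusted p under 0.05 in limma, and over all genes 0.288% and 0.0303% were called. The cytokine gene IL6 had a log2 fold change of 5.06 ± 0.19 at 1 h (SE, adjusted p = 7.87e-09 from limma), with mean intensities of 1668 in LH1 and 49.4 in LHR+ arrays. EDN1, which encodes endothelin-1, was at 3.34 ± 0.13 and CXCL8, a neutrophil chemokine gene, at 2.76 ± 0.20. At 4 h, 5 were up-regulated and 2 down-regulated, beside 1.18% and 0.799% of all genes. IL6 with 4.54 ± 0.19, CXCL8 with 2.42 ± 0.20 and the growth factor gene HBEGF with 2.12 ± 0.19 were among the former. HMOX1 (-1.05 ± 0.20) and PLAU, the urokinase gene, which read 1964 in LH4 and 3942 in LHR+ arrays as means of 3, were down-regulated then. At 8 h, 2 were up-regulated, KRT16 (3.36 ± 0.78) and IL6 (2.29 ± 0.19), and 2 were down-regulated, CCND1 (-1.14 ± 0.16) and ITGA2 (-1.10 ± 0.25), beside 0.85% and 0.587% of all genes. KRT16 read 27.8 in LH8 and 1.46 in LHR+ arrays as means of 3, near background, and its value was 1.24 with 16 added, still called. Several of these calls depended on single arrays. HMOX1 was lost without LHR+ replicate 2 or LH4 replicate 2 or 3 (-0.98 to -0.95), and PLAU without LHR+ replicate 3 or LH4 replicate 2 or 3 and with 16 added. At 8 h KRT16 was lost without LHR+ replicate 3 (3.24) or LH8 replicate 2 (2.85), CCND1 without LH8 replicate 3 (-0.97), and ITGA2 without LHR+ replicate 1 (-0.99) or LH8 replicate 1 (-0.89). The 8 h calls of CCND1 and ITGA2 were also lost with only these groups in the fit, and that of ITGA2 with 16 added (-0.86).

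At 20 h, 6 of the 31 targets were up-regulated and 2 down-regulated, beside 3.68% and 3.72% of all genes. Among the former were the collagenase gene MMP13 (1.59 ± 0.16), the stromelysin gene MMP10 (1.45 ± 0.24) and IL6 (1.38 ± 0.19). The cyclin D1 gene CCND1 was at -2.62 ± 0.16 (SE, adjusted p = 1.3e-07 from limma) and LIF, a cytokine gene of the IL6 family, read 381 in LH20 and 776 in LHR+ arrays as means of 3, a call lost without LHR+ replicate 1 or 2 or LH20 replicate 1 or 2 (-0.97 to -0.91), with 16 added (-0.98) and with quantile normalization (-0.96). In LHR+ cells without LH, 4 targets were down-regulated and 0 were up-regulated in limma, where 1 was higher with an unadjusted p under 0.05, beside 1.86% and 2.34% of all genes. They included MMP13 (-3.84 ± 0.16), MMP1, the interstitial collagenase gene (-1.44 ± 0.21), and the keratin gene KRT16 (-4.65 ± 0.78). KRT16 read 60.3 in LHR- and 1.46 in LHR+ arrays as means of 3, and its value was -2.13 with 16 added, still called. MMP13 thus read 3440 in LHR- cells, 242 in LHR+ cells and 727 at 20 h, as means of 3 arrays. The median log2 fold change of the targets was -0.20 in LHR+/LHR- and 0.26 in LH20/LHR+, where that of all genes was 0.00 in both.

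Of 33 other immediate-early genes, 11 were up-regulated at 1 h and 0 were down-regulated, with 21 higher and 0 lower at an unadjusted p under 0.05 in limma. Of all genes 0.288% were up-regulated and 0.0303% down-regulated. The median log2 fold change was 0.61, beside -0.01 over all genes. They included CCN2, a matricellular protein gene (3.19 ± 0.12), NR4A2, an orphan nuclear receptor gene (2.77 ± 0.22), and EGR1, a zinc finger factor gene (2.75 ± 0.14, SE, adjusted p = 1.16e-07 from limma). At 4 h, 7 were up-regulated and 1 was down-regulated, beside 1.18% and 0.799% of all genes. NR4A3 was then at 4.70 ± 0.23 and NR4A2 at 3.76 ± 0.22, while EGR1 was at -1.89 ± 0.14. EGR1 read 1410 in LHR+, 9631 in LH1, 380 in LH4 and 302 in LH8 arrays, as means of 3. At 8 h 2 were up-regulated and 2 down-regulated, beside 0.85% and 0.587% of all genes. The latter were EGR1 (-2.22 ± 0.14) and DUSP6 (-1.01 ± 0.23). The DUSP6 call was lost with 16 added (-0.89), equal medians (-0.98), quantile normalization (-0.96) or only these groups in the fit. It was also lost without LHR+ replicate 1 or 2 or LH8 replicate 1 or 2. At 20 h 5 were up-regulated and 6 down-regulated, beside 3.68% and 3.72%. Among those down-regulated at 20 h KLF4 (-2.49 ± 0.12), CCN1 (-2.06 ± 0.14) and GADD45A (-1.79 ± 0.11) were furthest below 0. In LHR+/LHR-, where 1.86% of all genes were down-regulated, 3 of the list were, CCN2 (-1.57 ± 0.12), PTGS2 (-1.23 ± 0.38) and KLF2 (-1.06 ± 0.17). The PTGS2 call was lost without LHR- replicate 1 or 2 or LHR+ replicate 1 or 2 (-1.18 to -1.10), and that of KLF2 without LHR- replicate 3 (-0.96) or LHR+ replicate 3 (-0.92). With 16 added both were lost, at -0.69 for PTGS2 and -0.98 for KLF2.

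The genes whose log2 intensities followed each AP-1 gene most closely over the 18 arrays were taken among 12564 genes outside the family with a group mean above 51.2, the median intensity. Points share arrays and groups, and the values are descriptions. For FOS they were FLT1 (r = 0.85), KLF6 (0.79) and CYTOR (0.78), and for FOSB they were IL6 (0.94), EDN1 (0.92) and CXCL2 (0.89). For ATF3 they were CXCL3, CXCL2 and EDN1, all at r of 0.96. The genes nearest to FOSL1 were LETM2 (0.98), SMAGP (0.98) and DYRK2 (0.97), and those nearest to JUN were KMT5B, HNRNPAB and LOXL1-AS1, at 0.96 each to 2 decimals. FOSL2 228188_at was followed by HSPA2, BOD1L1 and RNF19A at 0.89 each, JUND by ARL1 (0.90), OSBPL11 (0.88) and CLK1 (0.88), and JUNB by SEC31A (0.83), SOS2 (0.82) and NEK5 (0.82).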

How the data were processed

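Expression was measured in 18 SKOV-3 cultures, 6 groups of 3, taken from the sample labels. Per the labels and the methods of the study, total RNA was amplified as cDNA with a NuGEN kit, fragmented, labelled and hybridized. In the deposited table each array has a linear intensity per probe set, computed by the authors, and the submitters' processing notes name PLIER while the methods name RMA, with versions and background settings not given in the sources used here. No other summarization was run here, so its effect on low intensities, such as those of FOS and FOSB without LH, was not tested.

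Intensities as deposited by the authors were transformed to log2(value + 1) with no further normalization, and no filter was used. After 62 control probe sets were left out, 54613 were tested. Gene names came from the platform annotation, where 41091 probe sets list 1 symbol, 1801 several and 11721 none. The groups' means were estimated over all probe sets and arrays by limma 3.58.1, run in R 4.3.3 (lmFit, eBayes, prior degrees of freedom 1.37), p was adjusted by Benjamini-Hochberg over all probe sets of a comparison, and calls used the thresholds of the study's methods, with limma in place of its tests. The procedure was tested on simulated data. The data.table package, version 1.17.8, read the values, and figures drawn with matplotlib in Python.

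The 8 genes, the 4 lists, the promoter motifs and the comparisons were chosen with earlier results of these data known. Named genes were all AP-1 probe sets, up to 3 called members of each list with the largest rise and fall in a comparison, and the 3 genes most like each AP-1 gene. A list gene was represented by its brightest probe set. Alternatives were 16 in place of 1, a filter on group means under 32, equal medians, quantile normalization, adjusted p alone, a fit of only the groups compared, a fit without moderated variances, a replicate block, 1 probe set per gene and leaving out each array. Same-numbered arrays of different groups had at most weak correlations of their deviations. None of 45 pairs was above 0.1 (median 0.01, beside -0.002 for other numbers), so the numbers were not taken as pairs. Even so, 11 of the 18 arrays correlated best with an array of their own number. No array's values were identical to another's. Promoter sequences are those of RefSeq, GRCh38.p14.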

Additional observations from a re-analysis of the deposited data

Results flagged for a closer look

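Direct comparisons between LH times were called for 18 combinations of AP-1 probe set and step, which means that the change against LHR+ cells differed between these times. From 1 to 4 h these were FOS (-3.98) and FOSL1 (-1.83), as log2 fold changes, and from 4 to 8 h FOSB (-2.14). From 8 to 20 h they were FOSL1 (-1.24), FOSL2 218880_at (1.08) and the JUN probe sets 201465_s_at (-1.02), 201466_s_at (-1.22) and 213281_at (-1.06). Between 1 and 20 h they were FOS (-3.00), FOSB (-3.18) and FOSL1 (-3.11), JUN 201464_x_at (-1.21), 201465_s_at (-1.12), 201466_s_at (-1.47) and 213281_at (-1.28), and ATF3 1554420_at (-2.44), 1554980_a_at (-1.01) and 202672_s_at (-1.44).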

How the results depend on the processing

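The results are limited by 3 arrays per group and by low intensities, since FOS and FOSB without LH and ATF3 1554420_at lie near background. Of 35 calls of AP-1 probe sets, none changed direction in any alternative. With the adjusted p alone, without the fold and the separation of arrays, the AP-1 probe sets called were 5 in LHR+/LHR-, 8 in LH4/LHR+, 4 in LH8/LHR+, 13 in LH20/LHR+, 5 in LH4/LH1, 5 in LH8/LH4 and 10 in LH20/LH8. With only the groups compared in the fit, 2 were called in LH1/LHR+ in place of 5, and 1 in LH8/LHR+ in place of 2. When 1 array was left out, the counts were 0 to 1 in LHR+/LHR-, 0 to 1 in LH8/LH4 and 3 to 6 in LH20/LH8, and they were 4 to 5 in LH1/LHR+, 2 to 4 in LH4/LHR+, 2 in LH8/LHR+ and in LH4/LH1, 6 to 9 in LH20/LHR+ and 8 to 10 in LH20/LH1. With the replicate number as a replicate block all 35 calls were kept, PTGS2 in LHR+/LHR- was no longer called, and the counts were 5 in LH1/LHR+, 3 in LH4/LH1, where FOSB was added, 6 in LH20/LH8, where FOSL2 205409_at was added, and otherwise those of the fit without it. FOSB was also called in LH4/LH1 with 16 added, with the filter and with 1 probe set per gene. The 34 calls that the filter could test kept their side of the threshold, 34 of 35 did with 16 added and with quantile normalization, 33 with equal medians and 35 with the fit without moderated variances. Equal medians moved the median of all probe sets by up to 0.10 (LH8/LH4). For the lists, the largest moves came with the adjusted p alone, as in 20 of 33 immediate-early genes at 20 h, and with 16 added the immediate-early genes down-regulated in LHR+/LHR- were 1 in place of 3. The causes of these changes were not tested.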
